A study of Homo sapiens with 6 samples.

Results

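The RAB GTPase genes were taken as every gene of the deposited expression table whose symbol is RAB followed by a number and at most 1 letter, which gave 59 genes of 14959 after RAB22A, which the rule leaves out, was set aside. RNA was sequenced from UM-SCC1 cells, an established line of head and neck squamous cell carcinoma (HNSCC), at 48 hours after transfection. One group of 3 libraries carried miR-204-5p mimics, synthetic copies of the mature microRNA, and the other group of 3 libraries carried the corresponding control mimics. Both groups were the same cell line and both were transfected, so the comparison is of 1 oligonucleotide with another in 1 line. The design text describes 3 independent experiments per group, without saying what was repeated in each.

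RAB proteins are small GTPases that switch between a GTP-bound form on membranes and a GDP-bound form in the cytosol, and each marks particular membranes on which it recruits the machinery for budding, transport and fusion. Exchange factors load them with GTP, GTPase-activating proteins switch them off, and a lipid anchor with its carrier proteins moves them on and off membranes. In epithelial cells they direct cargo such as receptors, integrins and junction proteins into endosomes, back to the surface, to lysosomes or out of the Golgi. A microRNA guides an Argonaute protein to messenger RNAs, most often through bases 2 to 8 of its 5′ end, the seed, paired with the 3′UTR.

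The mature miR-204-5p sequence is shown first because its seed was searched in the RAB messages. The sequence is from RefSeq (GRCh38.p14, chr9:70810031-70810052, minus strand), and capitals mark the seed.
miR-204-5p: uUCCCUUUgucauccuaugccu

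The seed pairs with AAAGGGA on a message. An 8mer match was AAAGGGAA, a 7mer-m8 match was AAAGGGA, a 7mer-A1 match was AAGGGAA, and a 6mer match was AAGGGA, searched on the sense strand only and counted at the longest form. The windows below are the 8mer matches of the RAB genes, searched in the 3′UTR that is longest among the transcripts GENCODE 29 (GRCh38) gives for a gene, and the 7mer-m8 matches of RAB10 and RAB29. They are shown because the genes that hold them include the RAB genes that fell most, with RAB1A as the 8mer gene that was not called. The 7mer-m8 matches of RAB2A, RAB5B, RAB6B, RAB8B and RAB27B are not printed, and of these genes only RAB2A was called. Capitals mark the match and lower case the flanks.
RAB13: aggagaaaaaggagaAAAGGGAAaagca
RAB10 first match: gtatatttaagagtgAAAGGGAcaaac
RAB10 second match: tttctaaatatcaaaAAAGGGAAatgaa
RAB14: ataaattgttttgtaAAAGGGAAagtgt
RAB40B: tcgatgtgtgtttgtAAAGGGAAaatta
RAB8A: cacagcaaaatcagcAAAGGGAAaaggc
RAB30: tcaatcaacattaaaAAAGGGAAgtggg
RAB7B: gtaagtgctataaacAAAGGGAAacagg
RAB29: cacatatcagagagaAAAGGGAccaaa
RAB1A: ttgattcttatggttAAAGGGAAataga

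All of these matches lie in 3′UTR exons. The RAB13 match is at chr1:153981953-153981960 on the minus strand, and those of RAB7B and RAB29 are at chr1:205977904-205977911 and chr1:205768228-205768234, also on the minus strand. The RAB10 matches are at chr2:26135849-26135855 and chr2:26137192-26137199 on the plus strand, and the RAB1A match is at chr2:65087826-65087833 on the minus strand. The RAB14 match is at chr9:121180106-121180113, that of RAB30 at chr11:82974325-82974332 and that of RAB40B at chr17:82657640-82657647, each on the minus strand. The RAB8A match is at chr19:16134116-16134123 on the plus strand. A match is a run of letters and no evidence that the microRNA binds there.

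Levels are given in FPKM, a fragment count scaled to transcript length and to library depth, so that levels of different genes can be set side by side. Fold changes are log2 differences of log2(FPKM + 1), mimics over control, which understates the change of genes at low FPKM. They were tested with limma over all 14959 genes with Benjamini-Hochberg adjustment, and a gene was called at an adjusted p under 0.05. The p-values measure the spread between these libraries. Depth could only be inferred from the steps between low FPKM values, which placed the libraries between about 13100000 and 16400000 fragments, so that 1 fragment on a 1 kb transcript was worth 0.0609 to 0.0766 FPKM. All 8 squamous epithelial markers were present, with gene means of 6.52 to 321 FPKM. Their summed level was 870 to 964 FPKM with miR-204-5p mimics and 996 to 1030 FPKM with control mimics, but single markers moved both ways. CDH1 and SFN were higher in every mimic library, SFN at 343 to 357 against 284 to 297 FPKM. TP63, DSG3, KRT5, KRT14 and EPCAM were lower in every mimic library, TP63 at 23.9 to 30.1 against 54.7 to 57.6 FPKM, and KRT17 overlapped. The 5 leukocyte markers summed to 12.7 to 14.3 FPKM with miR-204-5p mimics and 16.8 to 18.0 FPKM with control mimics, nearly all from CD14. The 4 fibroblast markers in the table, mainly COL1A1, summed to 9.81 to 11.6 with miR-204-5p mimics and 8.58 to 9.41 FPKM with control mimics, and 3 endothelial markers were at or below 0.767 FPKM in sum. The part of these shifts in the results was not tested.

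Of the 59 RAB genes, 28 were called by limma, 13 as lower and 15 as higher under miR-204-5p, and 31 did not pass. Across all genes tested, 40.8% were called, 16.8% lower and 23.9% higher, and the RAB shares were 22.03% lower and 25.4% higher, close to that background. The median FPKM over all genes was 5.81, 5.89 and 5.87 with miR-204-5p mimics and 5.61, 5.69 and 5.64 with control mimics. Every mimic library thus had the higher median. With FPKM scaled to equal medians the RAB split was 13 lower and 10 higher, and with quantile normalization 13 and 11. Without miR-204-5p mimics replicate 1 the RAB genes called higher were 9. Over all genes that run called 5276 in either direction, against 6098 in the main fit. The median RAB log2 fold change was 0.04, against 0.03 over all genes, so the family as a whole did not move in 1 direction. It was 0.0097 without control mimics replicate 2, 0.021 without miR-204-5p mimics replicate 1 and 0.067 without miR-204-5p mimics replicate 3. A total of 33 RAB genes had groups that did not overlap, 16 with mimics below and 17 above, where 53.6% of all genes did so, 22.7% below and 30.9% above.

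The RAB genes covered a wide range of levels, and 46 had a mean of at least 1 FPKM, of which 11 fell and 14 rose, or 23.9% and 30.4%, against 20.1% and 27.7% of the 11504 genes at that level. The other 13 were below 1 FPKM and included RAB9B, a late endosomal RAB with 1 library listed at 0. The most abundant was RAB1B, an ER-to-Golgi RAB. Summed over all 59 genes the level was 1264, 1223 and 1219 FPKM with miR-204-5p mimics and 1331, 1318 and 1331 FPKM with control mimics. The mimic libraries all lay below the control libraries, with means of 1236 ± 24.9 and 1327 ± 7.42 FPKM (SD, n = 3). In mean level RAB13 fell by 59.4 FPKM, RAB1B fell by 34.0, RAB10 fell by 22.3 and RAB14 fell by 13.7, and the largest rises were 15.2 FPKM in RAB25, 7.07 in RAB32, 6.60 in RAB31 and 5.70 in RAB3B. These are RNA levels of a bulk culture, in which fewer cells of a kind and less RNA per cell cannot be told apart.

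**Figure D1:**
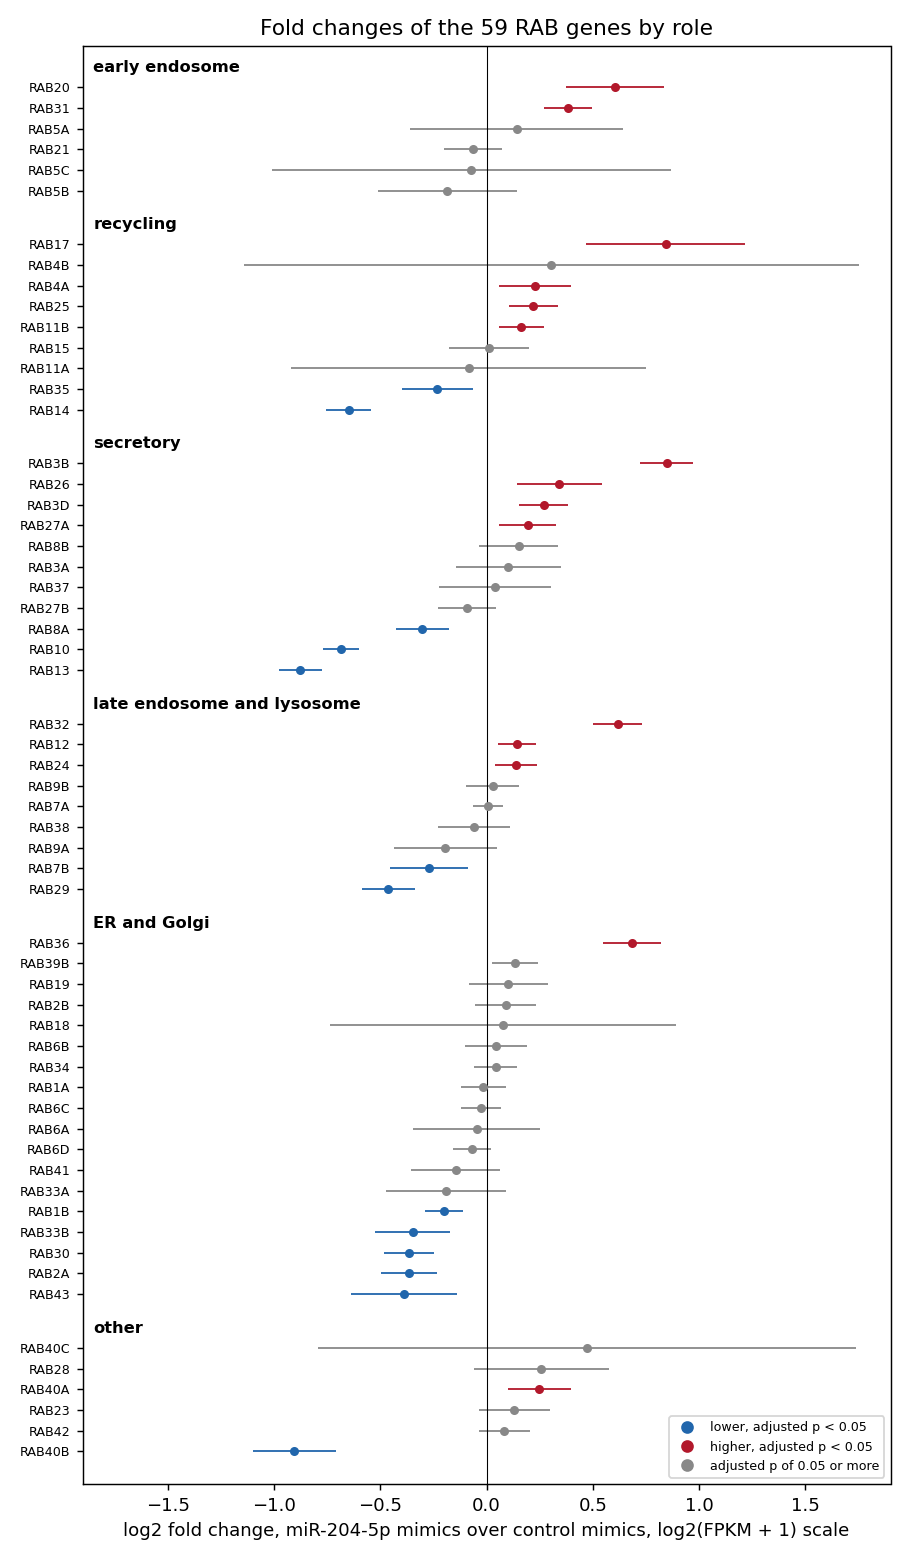
Log2 fold change (horizontal axis, log2(FPKM + 1) scale, miR-204-5p mimics over control mimics) of each of the 59 RAB genes, grouped by role, with bars for the 95% confidence interval and colours for the limma call. RAB40B, RAB13, RAB10 and RAB14 lie furthest to the left and RAB3B and RAB17 furthest to the right, and the wide intervals belong to genes whose replicates differed, such as RAB4B and RAB40C.

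The secretory RAB genes, which act in transport from the Golgi and from secretory granules to the plasma membrane, gave 3 lower, 4 higher and 4 not passed of 11. Each count by role can be read against the 16.8% of all genes lower and 23.9% higher. RAB13, which delivers junction proteins to the cell surface of epithelial cells, was at 73.5, 69.4 and 67.8 FPKM with miR-204-5p mimics and at 127, 129.9 and 133 FPKM with control mimics. Every mimic library was far below every control library, with means of 70.2 ± 2.97 and 129.7 ± 2.95 FPKM (SD, n = 3) and a log2 fold change of −0.88 (SE 0.0419, limma adjusted p = 5.97e-05). RAB10, which carries vesicles such as those holding glucose transporters to the surface, was at 35.2, 35.9 and 35.6 FPKM with miR-204-5p mimics and at 55.9, 58.9 and 58.6 FPKM with control mimics. Its libraries were nearly equal within each group and apart between groups, with a log2 fold change of −0.69 (SE 0.0357, limma adjusted p = 6.98e-05). RAB8A, an exocytic RAB that also acts at the primary cilium, was at 25.9, 23.7 and 22.9 FPKM against 30.02, 29.4 and 30.6 FPKM in control. Its groups were also apart, by less, with a log2 fold change of −0.30 (SE 0.0526, limma adjusted p = 0.00493).

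RAB3B, an RAB of regulated secretion, moved the other way. It was at 11.3, 12.4 and 11.8 FPKM with miR-204-5p mimics and at 6.11, 6.21 and 6.06 FPKM with control mimics, so that all mimic libraries were far above control. Its log2 fold change was 0.85 (SE 0.0516, limma adjusted p = 0.000107). Its relative RAB3D, found on granules of exocrine cells, was at 22.8, 25.2 and 25.02 against 20.1, 19.8 and 20.2 FPKM in control. RAB3D rose by a smaller step of 0.27 on the log2 scale (limma, BH-adjusted p = 0.00543). RAB26, which acts in the maturation of secretory granules, was at 4.81, 4.85 and 5.03 against 3.15, 3.91 and 3.93 FPKM in control, a log2 fold change of 0.34 (limma, BH-adjusted p = 0.0174). RAB26 lost its call without miR-204-5p mimics replicate 2 (adjusted p = 0.0502) and without replicate 3 of the same group (adjusted p = 0.0532). RAB27A, which docks secretory vesicles and multivesicular endosomes, had a log2 fold change of 0.19 (limma, BH-adjusted p = 0.0340). That call was lost in 8 of the 11 alternatives. Its paralog RAB27B had a log2 fold change of −0.09 and was not called (limma, BH-adjusted p = 0.247). RAB8B was at 5.71, 6.62 and 5.59 FPKM against 5.11, 5.64 and 5.08 FPKM in control. RAB3A, of synaptic vesicles and granules, was at 2.03, 2.42 and 2.51 FPKM against 2.34, 1.72 and 2.24 FPKM. The groups of RAB8B and RAB3A overlapped, and their log2 fold changes of 0.15 and 0.10, like that of 0.04 in RAB37, were not called.

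The recycling RAB genes, which return internalized cargo to the surface, gave 2 lower, 4 higher and 3 not passed of 9. RAB14, which acts between the Golgi, early endosomes and the surface, was at 22.1, 24.2 and 23.3 FPKM with miR-204-5p mimics and at 36.5, 36.6 and 37.7 FPKM with control mimics. The groups were well apart, with means of 23.2 ± 1.01 and 36.9 ± 0.674 FPKM (SD, n = 3) and a log2 fold change of −0.65 (SE 0.0433, limma adjusted p = 0.000144). RAB35, an RAB of fast recycling at the plasma membrane, had a log2 fold change of −0.23 (limma, BH-adjusted p = 0.0365), a call that 6 of the 11 alternatives removed. RAB17, an RAB of transport through polarized epithelial cells, was at 11.3, 10.2 and 7.87 FPKM with miR-204-5p mimics and at 3.99, 5.64 and 5.39 FPKM with control mimics. Its groups did not overlap, although each spread widely, and the log2 fold change was 0.84 (SE 0.156, limma adjusted p = 0.00615).

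RAB25, the epithelial relative of RAB11, was the most abundant recycling RAB, at 112, 102 and 103 FPKM with miR-204-5p mimics and at 89.2, 94.3 and 89.0 FPKM with control mimics. All mimic libraries were higher, by 0.22 on the log2 scale (limma, BH-adjusted p = 0.0117). RAB11B, of slow recycling, rose by 0.16 (limma, BH-adjusted p = 0.0262) and RAB4A, of rapid recycling, by 0.23 (limma, BH-adjusted p = 0.0426). The RAB11B call was lost in 6 of the 11 alternatives and the RAB4A call in 8 of them.

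The early endosomal RAB genes gave 2 higher, 0 lower and 4 not passed of 6. RAB20, which is found on endosomes and maturing phagosomes, was at 15.7, 14.3 and 14.3 FPKM with miR-204-5p mimics and at 8.72, 8.58 and 10.97 FPKM with control mimics. Control replicate 3 was the highest of its group and still below every mimic library, and the log2 fold change was 0.60 (SE 0.0960, limma adjusted p = 0.00334). RAB31, which acts between the Golgi and endosomes, was at 26.0, 27.8 and 27.8 FPKM against 20.5, 19.9 and 21.5 FPKM in control. Its groups were apart and the log2 fold change was 0.38 (limma, BH-adjusted p = 0.00123). RAB5B, 1 of the 3 RAB5 genes that drive fusion of early endosomes, was at 22.4, 24.1 and 23.9 FPKM against 21.1, 30.4 and 30.01 FPKM in control. The low value of control replicate 1 set its result, since the log2 fold change of −0.19 was not called with it (limma, BH-adjusted p = 0.322) and was called lower without it (adjusted p = 0.00535).

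The late endosomal and lysosomal RAB genes gave 2 lower, 3 higher and 4 not passed of 9. RAB29, a relative of RAB32 that can bring the kinase LRRK2 to membranes, was at 13.6, 13.3 and 13.6 FPKM with miR-204-5p mimics and at 20.2, 19.0 and 17.9 FPKM with control mimics. All mimic libraries were lower, with a log2 fold change of −0.46 (SE 0.0516, limma adjusted p = 0.000837). RAB32, which serves lysosome-related organelles, was at 20.1, 19.6 and 18.3 FPKM against 11.9, 12.4 and 12.4 FPKM in control. RAB32 thus rose where RAB29 fell, by 0.62 on the log2 scale (SE 0.0484, limma adjusted p = 0.000240). RAB7A, the central RAB of traffic to lysosomes, was at 129.9, 129 and 131 FPKM against 129.9, 128 and 129 FPKM in control. Its log2 fold change was 0.01, with a 95% confidence interval of −0.06 to 0.08. RAB7B, which acts from late endosomes to the Golgi, was low, at 0.187, 0.261 and 0.433 FPKM against 0.571, 0.608 and 0.492 FPKM in control. The RAB7B log2 fold change of −0.27 was called (limma, BH-adjusted p = 0.0307), but with 1 replicate left out the adjusted p reached 0.0897. RAB12 and RAB24, 2 RABs linked to lysosomal degradation and autophagy, each rose by 0.14 on the log2 scale (limma, BH-adjusted p = 0.0225 and 0.0385). The RAB12 call was lost in 6 of the 11 alternatives and the RAB24 call in 8 of them.

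The RAB genes of the ER and Golgi gave 5 lower, 1 higher and 12 not passed of 18, or 27.8% lower and 5.56% higher, beside 16.8% and 23.9% of all genes. Most did not pass, and 7 of the 18 had log2 fold changes above 0. RAB2A, which tethers membranes at the Golgi, was at 29.2, 27.7 and 30.8 FPKM with miR-204-5p mimics and at 37.3, 36.4 and 39.9 FPKM with control mimics. All mimic libraries were below control, with a log2 fold change of −0.36 (SE 0.0549, limma adjusted p = 0.00270). RAB1B was at 232, 222 and 230.3 FPKM against 267, 266 and 255 FPKM in control. Its fall was small on the log2 scale, at −0.20 (SE 0.0371, limma adjusted p = 0.00628), and large in FPKM because of its level. RAB1A, its close paralog in ER-to-Golgi transport, was at 57.6, 59.6 and 55.1 FPKM against 56.7, 57.0 and 60.3 FPKM in control. The RAB1A groups overlapped, and the log2 fold change of −0.01 had a 95% confidence interval of −0.12 to 0.09 (limma, BH-adjusted p = 0.823).

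Among the lower-level Golgi genes, RAB30 was at 0.484, 0.418 and 0.435 FPKM against 0.858, 0.928 and 0.796 FPKM in control, a log2 fold change of −0.36 (limma, BH-adjusted p = 0.00172). RAB33B, a Golgi RAB that binds the autophagy protein ATG16L1, was at 2.07, 2.18 and 2.20 FPKM against 3.11, 2.68 and 3.25 FPKM in control, a log2 fold change of −0.35 (limma, BH-adjusted p = 0.0105). Both genes had groups that did not overlap. RAB33A, the paralog of RAB33B, was at 0.305, 0.173 and 0.153 FPKM against 0.251, 0.657 and 0.267 FPKM in control, with overlapping groups, and was not called. RAB43 was at 1.66, 1.70 and 2.25 FPKM against 2.79, 3.02 and 2.43 FPKM in control, and its log2 fold change of −0.39 (limma, BH-adjusted p = 0.0249) lost its call when any 1 of 4 libraries was left out. Those were replicates 1 and 2 of each group. RAB36, a Golgi RAB, was the 1 gene of the class called higher, at 3.12, 3.13 and 3.20 FPKM against 1.67, 1.58 and 1.497 FPKM in control. Its groups were apart by a log2 fold change of 0.68 (SE 0.0572, limma adjusted p = 0.000293).

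The remaining ER and Golgi genes of high level, or related to a gene described above, were not called. RAB34 was at 52.7, 51.2 and 49.3 FPKM with miR-204-5p mimics and at 47.8, 50.97 and 49.9 FPKM with control mimics. RAB6A, which acts in transport within and from the Golgi, was at 45.5, 38.1 and 44.7 FPKM against 49.5, 47.2 and 36.7 FPKM in control. The groups of both genes overlapped. RAB2B was at 9.82, 10.06 and 10.003 FPKM against 8.63, 9.94 and 9.38 FPKM in control, a log2 fold change of 0.09 (limma, BH-adjusted p = 0.276), and its groups also overlapped. The relatives of RAB6A were below 1 FPKM, with RAB6B at 0.785 to 0.921 FPKM with mimics and 0.740 to 0.918 FPKM in control. RAB6C and RAB6D, whose sequences are near copies of RAB6A, were at 0.0261 to 0.0594 against 0.0316 to 0.0976 FPKM and at 0.124 to 0.160 against 0.170 to 0.221 FPKM. The RAB6B and RAB6C groups overlapped, those of RAB6D did not, and the 3 were not called.

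The other RAB genes gave 1 lower, 1 higher and 4 not passed of 6. RAB40B, an unusual RAB with a SOCS box that joins a ubiquitin ligase, was at 1.61, 1.41 and 1.25 FPKM with miR-204-5p mimics and at 3.28, 3.51 and 3.82 FPKM with control mimics. Every mimic library was below every control library, and the log2 fold change was −0.90 (SE 0.0814, limma adjusted p = 0.000383). That is close to RAB13 on the log2(FPKM + 1) scale only. With a pseudocount of 0.1 the log2 fold changes were −1.26 for RAB40B and −0.88 for RAB13. RAB40A, its relative, was at 1.06, 0.844 and 0.980 FPKM against 0.713, 0.659 and 0.580 FPKM in control, a log2 fold change of 0.25 (limma, BH-adjusted p = 0.0194). The RAB40A call was lost in 5 of the 10 alternatives that tested it.

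**Figure D2:**
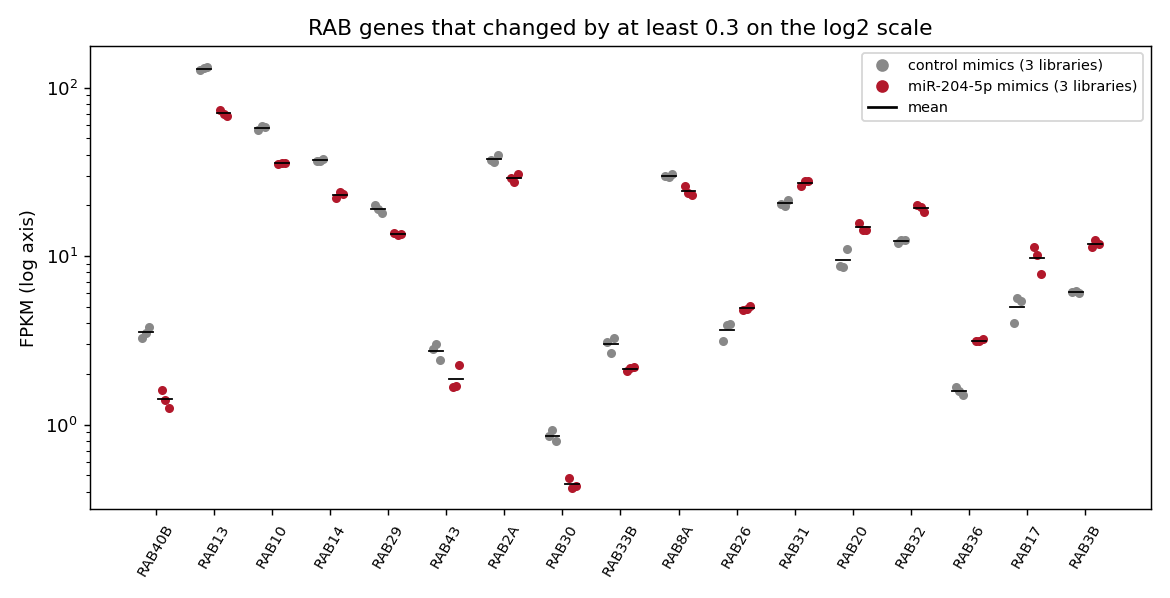
FPKM (vertical axis, log scale) of the 17 RAB genes called by limma with a log2 fold change of at least 0.3 in size, with 1 point per library, grey for control mimics and red for miR-204-5p mimics, and a line at the mean of 3. The 10 genes on the left are lower with miR-204-5p mimics and the 7 on the right are higher, and in each of them the points of the groups do not overlap, with RAB43 the closest to doing so (2.25 FPKM against 2.43 FPKM).

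Close relatives were set against each other within each library, as the difference of their log2(FPKM + 1) levels, over 24 pairs that share a RAB number. In 10 of the 24 pairs the groups did not overlap, as was so for 53.6% of all genes taken singly. No share over other pairs of genes was computed, so the count is not read as a result about paralogs. With 3 libraries against 3 the smallest p of the exact two-sided permutation test was 0.1 for any pair, and 0.24 after adjustment over the 24 pairs, so no pair could pass. The difference between RAB40A and RAB40B shifted by 1.15, from −1.46 ± 0.145 in control to −0.30 ± 0.105 with miR-204-5p mimics (SD, n = 3). That between RAB8A and RAB8B shifted by −0.45, and that between RAB2A and RAB2B also by −0.45. That between RAB3A and RAB3B shifted by −0.75, with RAB3A not called, and that between RAB9A and RAB9B by −0.22, with neither called. The shifts were 0.58 for RAB3B over RAB3D, 0.28 for RAB27A over RAB27B, 0.28 for RAB7A over RAB7B, 0.18 for RAB1A over RAB1B and 0.04 for RAB6C over RAB6D, both of the latter below 1 FPKM. In the RAB8, RAB2, RAB7 and RAB1 pairs the called member (RAB8A, RAB2A, RAB7B and RAB1B) was lower with miR-204-5p mimics, and the other was not called. In the RAB27 pair and that of RAB3A and RAB3B the called member, RAB27A and RAB3B, was higher, and the other was not called.

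Some RAB genes varied between replicates more than between groups. Among the 46 RAB genes with a mean of at least 1 FPKM, 6 had a highest library at least 1.5 times the lowest in at least 1 of the groups, which is 13.0%, against 11.7% of the 11504 genes at that level. RAB11A, the main RAB of the recycling endosome, was at 14.0, 30.4 and 13.2 FPKM with miR-204-5p mimics and at 22.1, 13.3 and 23.4 FPKM with control mimics. The 95% confidence interval of its log2 fold change ran from −0.92 to 0.75, so neither a fall nor a rise of moderate size was detectable. RAB5C was at 45.9, 21.98 and 21.99 FPKM against 49.4, 23.3 and 22.4 FPKM in control, with replicate 1 of each group the high one. The gene model AC099811.2 on the same strand covered 47.5% of the RAB5C transcript. RAB18, of the ER and lipid droplets, was at 12.9, 6.20 and 12.5 FPKM against 12.5, 11.3 and 5.94 FPKM, with 1 low library in each group. RAB5A was at 12.3, 13.7 and 22.1 FPKM against 15.1, 12.2 and 14.8 FPKM in control. None of the 4 was called.

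RAB40C was at 6.78, 9.75 and 12.3 FPKM with miR-204-5p mimics and at 3.70, 3.95 and 16.9 FPKM with control mimics, and control replicate 3 decided its result. Its log2 fold change of 0.47 was not called with that library (limma, BH-adjusted p = 0.516) and was called without it (adjusted p = 0.0157). RAB4B, of rapid recycling, was at 7.41, 6.27 and 0.874 FPKM against 2.80, 1.68 and 4.96 FPKM in control. The readthrough gene MIA-RAB4B, examined after these values were seen, shares 54.6% of the bases of the RAB4B transcript on the same strand. MIA-RAB4B was at 0.360, 0.189 and 3.32 FPKM with miR-204-5p mimics and at 0.246, 2.78 and 0.397 FPKM with control mimics, and was highest in each group in the library where RAB4B was lowest. Another readthrough gene, RAB4B-EGLN2, covered more of the RAB4B transcript on the same strand, at 67.4%. RAB4B-EGLN2 was at 7.40, 7.29 and 8.28 FPKM with miR-204-5p mimics and at 5.55, 5.69 and 8.20 FPKM with control mimics. It was highest in replicate 3 of each group, where RAB4B was lowest with mimics but highest in control. How fragments were divided between such overlapping genes is not given in the sources used here.

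**Figure D3:**
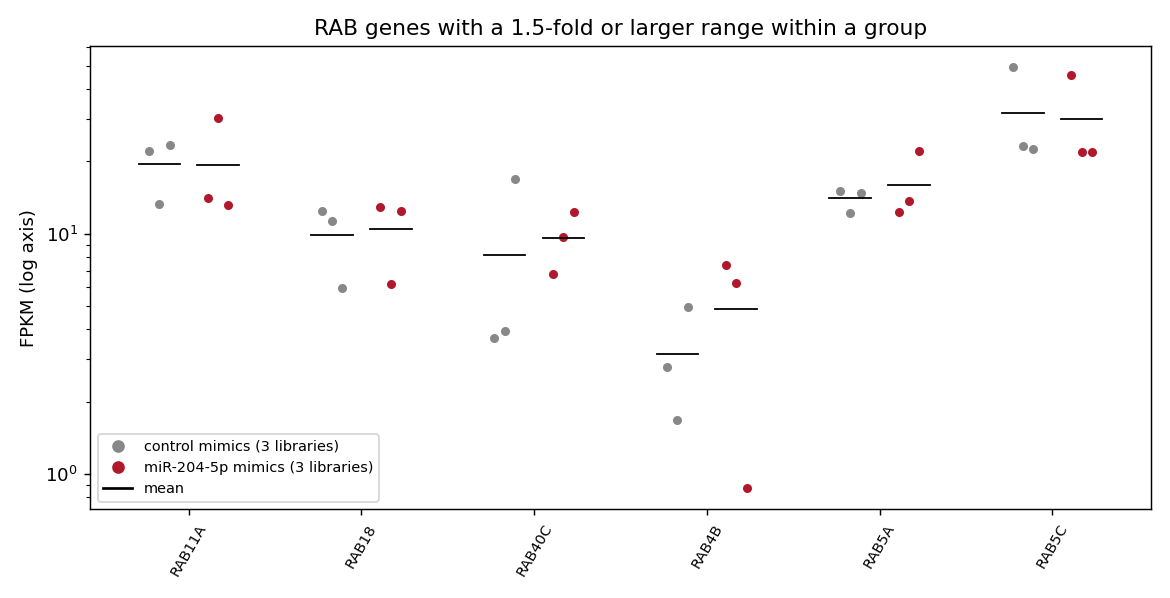
FPKM (vertical axis, log scale) in each library for the RAB genes whose replicates spread at least 1.5-fold in at least 1 group, grey for control mimics and red for miR-204-5p mimics, with a line at the mean of 3. Single libraries stand away from the others of their group, such as the RAB11A mimic library at 30.4 FPKM and the RAB4B mimic library at 0.874 FPKM.

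Exons of another gene on the same strand covered part of the listed transcript of 8 RAB genes, and 6 of these were called, where 40.8% of all genes and 47.5% of the RAB genes were. For RAB43 the readthrough gene ISY1-RAB43 covered 88.6% of the transcript and had itself a log2 fold change of −0.31 (limma, BH-adjusted p = 0.00737), so the RAB43 value cannot be told apart from it. For RAB13 an overlapping gene model covered 40.5%, for RAB24 the gene MXD3 covered 74.9%, for RAB4A the gene SPHAR 23.2%, for RAB8A the gene HSH2D 7.32%, and for RAB3D the overlap was 1.15%. MXD3 itself was not called (log2 fold change 0.12, limma adjusted p = 0.255). RAB4B and RAB5C, whose overlaps are given above, were among the 8 and were not called. Counting both strands, 26 RAB genes had such an overlap, and whether counting used strand is not given in the sources used here.

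The RAB genes were then grouped by their best seed match in the 3′UTR. The name pattern did not use that match, but the rule left out RAB22A, and the genes were chosen with earlier results of these data known. Of the 59 genes, 19 held a match of at least 7 bases, which is 32.2%, against 27.1% of the 14664 genes with an annotated 3′UTR. An 8mer was present in 8 RAB genes, or 13.6%, against 8.60% of all genes. Of those 8 RAB genes 7 were lower and 0 higher, with a median log2 fold change of −0.51. Of the 1261 genes with an 8mer across all genes, 33.5% were lower and 13.3% higher, with a median of −0.08. The 2 sets differ in level, with a median gene mean of 28.6 FPKM for the 8 RAB genes and 4.23 FPKM for the 1261. Fold changes of low genes are understated on this scale, so these shares and medians do not compare like genes. The 7 lower RAB genes were RAB13, RAB10, RAB14, RAB40B, RAB8A, RAB30 and RAB7B, whose matches are printed above, and the 8mer gene not called was RAB1A. RAB10 held a 7mer-m8 match beside its 8mer, and RAB40B and RAB30 each held a 7mer-A1 match beside theirs. A 7mer-m8 was the best match in 6 RAB genes, of which RAB29 and RAB2A were lower and RAB5B, RAB6B, RAB8B and RAB27B were not called, and over all genes 25.5% of that class were lower. A 7mer-A1 was the best match in 5 RAB genes, with RAB33B lower, RAB3B higher, and RAB15, RAB37 and RAB40C not called. All genes of that class gave 22.3% lower and 19.1% higher, so the RAB count was at that level. RAB3B held 2 such matches. The matches of RAB40C and RAB27B, and a 7mer-A1 match of RAB5B beside its 7mer-m8, lie outside the exons of the listed transcript.

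The 40 RAB genes with no match of 7 bases gave 3 lower and 14 higher, or 7.50% and 35.0%, where the 10691 such genes of the table gave 13.5% and 27.2%. The 3 that fell without such a match were RAB43, RAB35 and RAB1B, of which RAB1B held a 6mer. In the class with no match at all, 2 of 29 RAB genes were lower and 9 higher, with a median log2 fold change of 0.10, against 12.5% lower, 28.1% higher and a median of 0.07 over the 8892 genes of that class. All genes share the libraries and the 3′UTR annotation, 3′UTR length and level were not adjusted for, and the counts are a description of these classes.

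**Figure D4:**
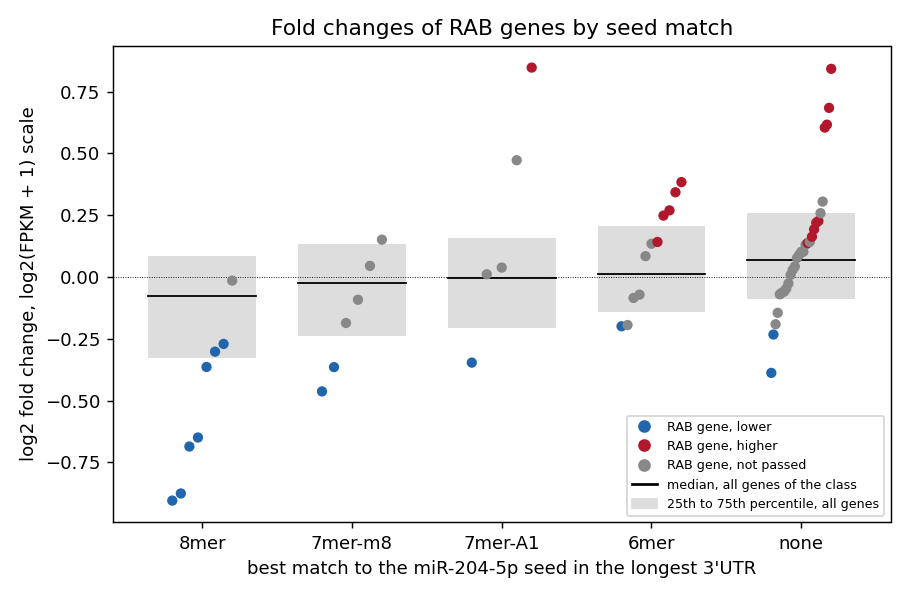
Log2 fold change (vertical axis, log2(FPKM + 1) scale) of the RAB genes by their best seed match in the longest 3′UTR (horizontal axis), with 1 point per gene coloured by the limma call, a line at the median of all genes of the class and a grey band from the 25th to the 75th percentile of all genes. All 8 RAB genes with an 8mer are below 0, with a median of −0.51, and RAB1A at −0.01 lies closest to 0.

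The genes that act on RAB proteins were taken from a fixed list of 99, of which 97 were in the table. Of these 30 were lower, 23 higher and 44 not passed, with a median log2 fold change of −0.03. The share lower was 30.9%, against 16.8% of all genes, and the share higher was 23.7%, at the 23.9% of all genes. Of the 97, 91 had a mean of at least 1 FPKM, and of all genes at that level 20.1% were lower and 27.7% higher. The shares of each list below can be read against both. The number of regulators called higher was 13 without control mimics replicate 2, 14 without control mimics replicate 3 and 14 without miR-204-5p mimics replicate 2. Over all genes those runs called 4971, 5183 and 4995 in either direction, against 6098 in the main fit. The number of regulators higher was also 14 with FPKM scaled to equal medians, where 6054 of all genes were called.

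The GTPase-activating proteins, which switch RABs off, gave 16 lower, 3 higher and 9 not passed of 28, with a median of −0.22. That is 57.1% lower and 10.7% higher, where all genes gave 16.8% and 23.9%. Genes with a mean of at least 1 FPKM gave 20.1% and 27.7%. TBC1D4, which acts on RAB10 and its relatives in glucose transporter traffic, was at 7.23, 7.28 and 7.67 FPKM with miR-204-5p mimics and at 13.7, 13.6 and 13.2 FPKM with control mimics. Its groups were well apart, with a log2 fold change of −0.79 (limma, BH-adjusted p = 9.72e-05). TBC1D5, which acts on RAB7 with the retromer coat, was at 6.22, 6.83 and 3.74 FPKM against 10.5, 10.5 and 9.53 FPKM in control, also a log2 fold change of −0.79 (limma, BH-adjusted p = 0.0148). The highest of the list were TBC1D2, with means of 18.4 ± 0.785 and 12.5 ± 1.72 FPKM (SD, n = 3) and a log2 fold change of 0.53 (limma, BH-adjusted p = 0.00606), and TBC1D1, the relative of TBC1D4, at 0.49 (limma, BH-adjusted p = 0.000710). TBC1D4 and TBC1D1, which are related, thus moved in opposite directions.

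The exchange factors, which load RABs with GTP, gave 9 lower, 9 higher and 12 not passed of 30, against 16.8% of all genes lower and 23.9% higher. DENND4B, an exchange factor of RAB10, was at 11.5 ± 0.967 FPKM with miR-204-5p mimics and 17.3 ± 1.38 FPKM with control mimics (SD, n = 3), which is a log2 fold change of −0.56 (limma, BH-adjusted p = 0.00233). DENND5A had a log2 fold change of −0.53 (limma, BH-adjusted p = 0.000815). DENND6A, an exchange factor of RAB14, and its relative DENND6B rose by 0.39 (limma, BH-adjusted p = 0.00338) and 0.55 (limma, BH-adjusted p = 0.00495) on the log2 scale.

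The 8 genes for the lipid anchor and its carriers gave 4 higher, 0 lower and 4 not passed, beside 23.9% of all genes higher and 16.8% lower. CHML, an escort protein that presents new RABs for lipid attachment, was at 4.30 ± 0.439 FPKM with miR-204-5p mimics and 2.33 ± 0.202 FPKM in control (SD, n = 3), which is a log2 fold change of 0.67 (limma, BH-adjusted p = 0.00137).

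The effectors, which bind GTP-loaded RABs, gave 5 lower, 7 higher and 19 not passed of 31. These shares, 16.1% lower and 22.6% higher, were close to those of all genes (16.8% and 23.9%). They were below the 20.1% and 27.7% of genes with a mean of at least 1 FPKM, a level that 28 of the 31 reached. USO1, a tether that acts with RAB1 between the ER and Golgi, was at 54.7 ± 1.39 FPKM with miR-204-5p mimics and 38.8 ± 1.01 FPKM with control mimics (SD, n = 3), which is a log2 fold change of 0.48 (limma, BH-adjusted p = 0.000234). RAB11FIP3 and RAB11FIP4, a related pair of RAB11 effectors, had log2 fold changes of −0.48 (limma, BH-adjusted p = 0.00552) and −0.37 (limma, BH-adjusted p = 0.00457). RAB11FIP2, another RAB11 effector, was at 0.26 (limma, BH-adjusted p = 0.0365), a call lost in 8 of the 11 alternatives.

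**Figure D5:**
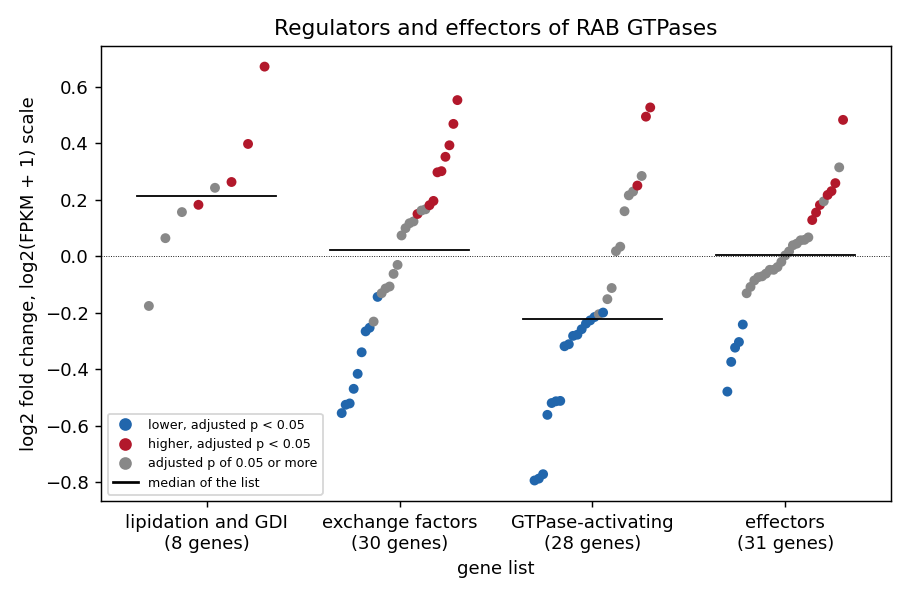
Log2 fold change (vertical axis, log2(FPKM + 1) scale) of the 97 regulators and effectors of RAB proteins in 4 lists (horizontal axis), with 1 point per gene coloured by the limma call and a line at the median of each list. The GTPase-activating proteins lie mostly below 0, with a median of −0.22 and 16 of 28 called lower, while the exchange factors spread to both sides with 9 called in each direction.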

How the data were processed

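RNA of 6 libraries of UM-SCC1 cells was measured, 3 per group. The deposited table gives 1 FPKM value per gene and library, computed by the authors. The submitters' processing notes name HISAT2, StringTie and hg38, with no version given. The study's methods name edgeR, which was not used here, because the table holds no counts. Columns with the authors' own log2 ratios, p-values and FDR were not used. Transcript lengths in the table were read as annotation.

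Values were transformed to log2(FPKM + 1), with no filter, and all 14959 genes were fitted in limma 3.58.1 (R 4.3.3) with a trend between mean and variance and no covariate. Other steps used Python 3.11.15. Of the listed transcripts, 14951 were found in GENCODE 29, 14807 with the same length. Depth was inferred from whole steps among low values, which held for 33.3% to 39.0% of those examined within a tolerance of 0.02, against 2.69% to 3.20% at other step sizes.

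The fit was also run on simulated data, and the outcome of that run is not reported here. The RAB genes and gene lists were chosen with earlier results of these data known. Library values are given for RAB genes called with a log2 fold change of at least 0.3 in size, for the 8 most abundant and for paralogs of both (ranges for RAB6B, RAB6C and RAB6D), and of each regulator list at most the 2 lowest and 2 highest called genes with a mean of at least 1 FPKM were named. A gene of the regulator lists that the rule selects is not reported here. RAB genes named outside this rule were chosen after their values were seen. The 11 alternatives were a pseudocount of 0.1, a mean of at least 1 FPKM, a replicate block, scaling to equal medians, quantile normalization and leaving out each library.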

Additional observations from a re-analysis of the deposited data

How the results depend on the processing

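Of the 28 RAB calls, 18 were kept in every alternative that tested them. RAB30, 1 of the 18, has a mean below 1 FPKM and was tested in 10 of the 11 alternatives. RAB7B, RAB43, RAB26, RAB40A, RAB35, RAB11B, RAB12, RAB24, RAB27A and RAB4A were lost in at least 1, and the cause was not tested. The median RAB log2 fold change was 0.073 with a pseudocount of 0.1 and 0.083 among genes with a mean of at least 1 FPKM. With 1 library left out, 10 to 13 RAB genes were lower and 9 to 12 higher, and 13 to 17 regulators were higher. Calls over all genes were also fewer in those runs, at 4971 to 5371 of 14959, against 6098 in the main fit. With equal medians 14 regulators were higher, and 6054 of all genes were called.

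The RAB genes whose log2 fold change turned its sign were not called. With equal medians RAB15 was at −0.0086, RAB34 at −0.0021 and RAB7A at −0.036, and with quantile normalization RAB15 was at −0.055, RAB6B at −0.022 and RAB7A at −0.016. With 1 library left out the range was −0.45 to 0.12 for RAB11A, −0.037 to 0.091 for RAB15, −0.22 to 0.39 for RAB18, −0.041 to 0.014 for RAB1A, −0.064 to 0.14 for RAB37 and −0.11 to 0.0081 for RAB38. It was −0.091 to 0.99 for RAB4B, −0.10 to 0.30 for RAB5A, −0.41 to 0.29 for RAB5C, −0.18 to 0.035 for RAB6A, −0.044 to 0.00045 for RAB6C and −0.0091 to 0.069 for RAB9B. The depth is inferred, so counting error of low genes could not be given.

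Same-numbered libraries did not deviate together (r = −0.040, −0.021 and −0.11), so the numbers were not taken to pair them. With a replicate block the median RAB log2 fold change was again 0.038, 10 RAB genes were lower and 10 higher, and 13 regulators were higher. Over all genes the run with the block called 5096, against 6098 in the main fit.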
